A study of Rattus norvegicus with 6 samples.

Results

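The mitochondrial ribosome (mitoribosome) makes the small set of proteins encoded by mitochondrial DNA, all of them subunits of the respiratory chain and the ATP synthase. Its RNA comes from mitochondrial DNA, whereas its proteins are encoded in the nucleus, translated in the cytosol, imported and assembled with the RNA into a large and a small subunit. Some of these proteins descend from bacterial ribosomal proteins and others have no bacterial counterpart. In smooth muscle, as in other cells, the pathway is needed to build the complexes that hold these subunits. The genes described here were all rows annotated as protein coding whose symbol starts with Mrpl or Mrps followed by a digit. There were 70 such rows among 30945, for 69 symbols, since Mrpl42 had 2 rows. Of the 70, 68 were among the 13016 genes with enough reads to test.

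Primary rat vascular smooth muscle cells were compared in 2 groups of 3 libraries each, labelled Negative_control and siRNA_ANK. Small interfering RNAs (siRNAs) are short duplexes that lower the transcript they match. The rat strain, the vessel, the passage, the siRNA sequences and the time after transfection were among the items not given in the sources used here. Nothing in the labels says that the replicates came from separate cultures or animals, so the p-values measure the spread between these libraries, which may be technical. Each library held 15641259 to 17441548 counted reads, and 25419 to 29043 of them fell on the mitoribosomal protein genes.

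The labels do not spell out ANK. Ankh (ENSRNOG00000010960, chromosome 2, 78153026 to 78280187, mRatBN7.2), which encodes a transporter that brings ATP and pyrophosphate out of the cell, was counted at 338, 351 and 367 CPM (reads of the gene per 1e6 reads counted, scaled between libraries) in the control libraries. It was at 84.9, 76.7 and 120 CPM in the siRNA_ANK libraries, a log2 fold change of -1.91 ± 0.16 (SE) with an adjusted p of 0.000180. The siRNA_ANK library 3 kept the most Ankh of its group. Of 8 smooth muscle markers, all 8 were tested and 7 were higher in siRNA_ANK, with Acta2 at 1.10 ± 0.16 on the log2 scale. Their summed level ran from 2595 to 3608 CPM in the controls and from 5155 to 6173 CPM in siRNA_ANK. Of 6 adventitial fibroblast markers 5 were higher, with sums of 118 to 127 CPM against 192 to 203 CPM. Of 6 macrophage and leukocyte markers only Cd14 passed the filter, and it was lower at 25.2 ± 1.53 against 12.0 ± 2.06 CPM (SD, n = 3). The sums of these 6 were 24.8 to 28.1 CPM in the controls and 11.3 to 14.9 CPM in siRNA_ANK, with Ptprc and Adgre1 at 0 counts in every library. The 6 endothelial markers summed to at most 1.58 CPM, with Cdh5, Kdr and Tie1 at 0 counts. In bulk RNA, fewer cells of a type and less RNA per cell cannot be told apart, and the part of these markers in the results below was not tested.

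Few mitoribosomal protein genes differed between the groups, and none of the 68 tested by 2-fold. A gene was called where edgeR's quasi-likelihood test gave an adjusted p under 0.05 over all genes tested. Of the 68 members, 8 were called: Mrpl39, Mrpl44 and Mrpl36 were higher in siRNA_ANK, and Mrps18b, Mrps15, Mrpl27, Mrps12 and Mrps28 were lower. That is 11.8% of the members, where 40.1% of all genes tested were called (19.9% higher and 20.2% lower). The members' mean levels ran from 8.74 to 125 CPM, and among the 7549 genes in that range 43.4% were called. Their median standard error of the log2 fold change was 0.097, beside 0.10 for all genes tested and 0.084 for the genes in that range. At an unadjusted p under 0.05 there were 10 members (14.7%), beside 47.8% of all genes tested. Counting groups of libraries that did not overlap gave 12 members (17.6%), 4 higher and 8 lower, beside 51.1% of all genes tested.

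The sizes of the differences were small as well. The median log2 fold change of the 68 members was -0.02, with 33 above 0 and 35 below, beside 0.01 for all genes tested. The median size without sign was 0.09 for the members, 0.19 for genes in the same range of levels and 0.23 for all genes tested. The middle 80% of the members lay between -0.18 and 0.16, where the same span over all genes ran from -0.48 to 0.61. For 66 of the 68 members (97.1%) the 95% interval of the fold change lay within 1.5-fold in either direction. The same held for 76.9% of the genes in their range of levels and for 58.1% of all genes tested. The exceptions were Mrpl39, with an interval of 0.20 to 0.62, and Mrps12, with -0.62 to -0.08. The members that were not called ranged from -0.23 for Mrps36 to 0.23 for Mrpl49.

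**Figure D1:**
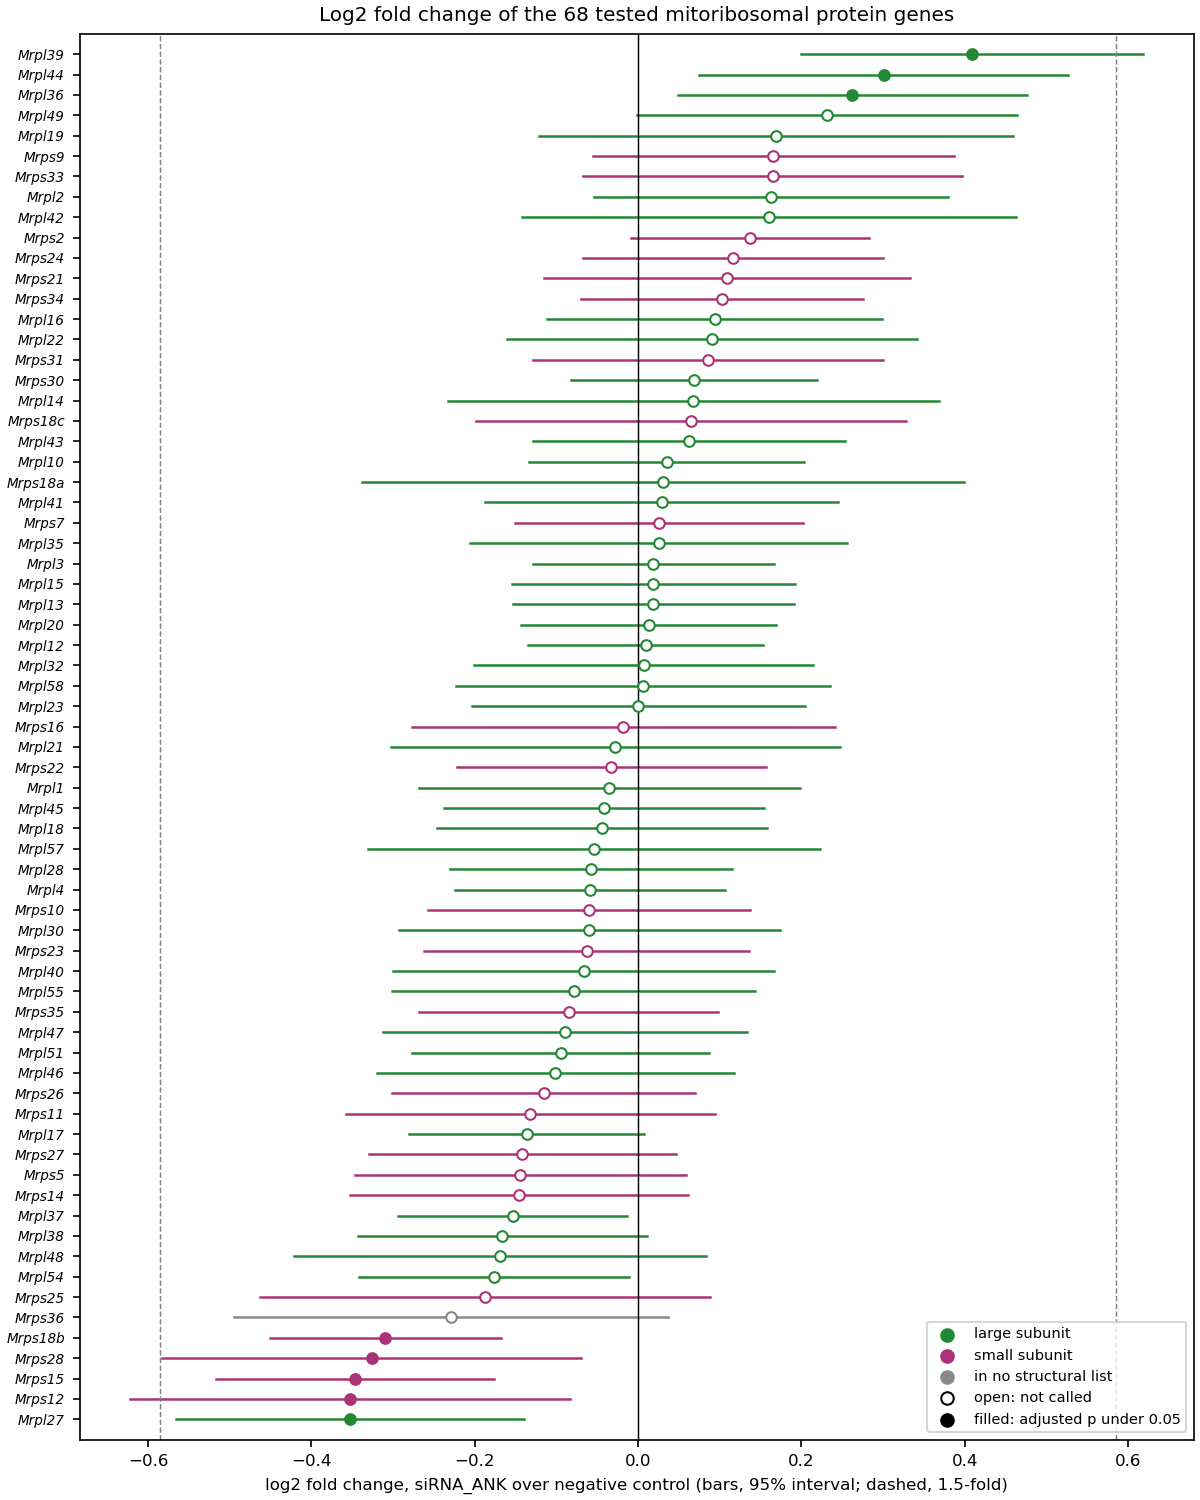
Log2 fold change of siRNA_ANK over negative control for each of the 68 tested mitoribosomal protein genes, ordered by value, with bars for the 95% interval, colours for the subunit, filled points for the 8 called genes and dashed lines at 1.5-fold. Most intervals cross 0, and the interval passes a dashed line for Mrpl39 and Mrps12.

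Taken per library, the members together made up 0.167%, 0.160% and 0.164% of the reads in the controls and 0.151%, 0.149% and 0.162% in siRNA_ANK. The groups overlapped, because siRNA_ANK library 3 lay within the range of the controls. The median deviation of the members from their control mean, on the log2 scale, was -0.05, -0.03 and 0.05 in siRNA_ANK libraries 1, 2 and 3. In the controls it was 0.04, -0.01 and -0.01. The siRNA_ANK library that was highest in Ankh was thus also the highest of its group in these genes. Leaving it out raised the number of members called from 8 to 13, 3 higher and 10 lower, and the share called over all genes to 44.3%. Leaving out Negative_control 1, Negative_control 3 or siRNA_ANK 2 left 4 members called, and leaving out siRNA_ANK 1 left 5. The share called over all genes was 30.6%, 31.8%, 33.2% and 31.7% in these 4 runs.

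The small subunit held 25 of the rows, of which 24 were tested: 4 (16.7%) were called, all of them lower, beside 20.2% of all genes tested called lower, and the median log2 fold change was -0.06, with 9 genes above 0 and 15 below. Of the 43 large-subunit genes tested, 3 were higher and 1 was lower (9.30% called, beside 40.1% of all genes), with a median of 0.01 and 24 above 0. No test was made between the subunits. Among small-subunit proteins that take the place of a bacterial protein, 3 of 14 (21.4%) were lower (median -0.04). Of 10 listed as specific to mitochondria, 1 was lower (median -0.07). In the large subunit, 1 of 25 that take the place of a bacterial protein was higher and 1 lower (median 0.01), and 2 of 18 listed as specific to mitochondria were higher (median -0.02). The mitochondria-specific lists hold Mrps18b and Mrps18a, which are related to bacterial S18 in sequence, so the lists divide the proteins by place in the ribosome and not strictly by descent. In both siRNA_ANK libraries 1 and 2 the small-subunit median lay below the controls, at -0.08 and -0.07, and in library 3 it was 0.03, at the top of the control range. The number of small-subunit genes called lower was 2 without Negative_control 1, Negative_control 3 or siRNA_ANK 1 and 7 without siRNA_ANK 3. The number of large-subunit genes called higher was 1 without any of the controls or siRNA_ANK 2, left out singly, and the number called lower was 0 without siRNA_ANK 2 and 3 without siRNA_ANK 3.

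Among the small-subunit proteins, Mrps18b (ENSRNOG00000000804, chromosome 20, 2838030 to 2844260, plus strand) had the lowest adjusted p of all members. It encodes one of the paralogues of bacterial S18 that mitochondria carry. The control libraries held 50.4, 47.9 and 49.2 CPM of it, and the siRNA_ANK libraries 38.7, 41.1 and 39.1 CPM. All siRNA_ANK libraries lay below all controls, at 39.7 ± 1.30 against 49.2 ± 1.25 CPM (SD, n = 3). The log2 fold change was -0.31 ± 0.07 (SE) and the adjusted p 0.00177. Its paralogues were not called: Mrps18c was at 11.5 ± 1.59 and 12.0 ± 0.674 CPM (log2 fold change 0.06, adjusted p = 0.713). Mrps18a, whose product sits in the large subunit, was at 10.04 ± 1.83 and 10.3 ± 2.16 CPM (0.03, adjusted p = 0.907), with an interval of -0.34 to 0.40.

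Mrps15 (ENSRNOG00000008279, chromosome 5, 138321593 to 138332205, plus strand) encodes the counterpart of a bacterial protein that binds the small-subunit RNA early in assembly. It was counted at 34.9, 31.4 and 35.0 CPM with the negative control and at 26.4, 25.3 and 28.0 CPM with siRNA_ANK, without overlap. The log2 fold change was -0.35 ± 0.08, with an adjusted p of 0.00304. Mrps12 (ENSRNOG00000019949, chromosome 1, 84025899 to 84028780, minus strand) encodes the counterpart of S12, a protein of the decoding centre. Its levels were 13.2, 10.998 and 13.7 CPM against 8.75, 10.48 and 10.4 CPM, so that the lowest control lay just above the highest siRNA_ANK library. The log2 fold change was -0.35 ± 0.13 and the adjusted p 0.0369. Mrps28 (ENSRNOG00000032630, chromosome 2, 92820606 to 92951284, plus strand) was at 11.2, 10.48 and 10.3 CPM under the negative control and 8.75, 7.85 and 8.93 CPM with siRNA_ANK. Its log2 fold change was -0.33 ± 0.12, with an adjusted p of 0.0422. The 2 rows that overlap it had 0 reads.

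In the large subunit, Mrpl39 (ENSRNOG00000047563, chromosome 11, 23779662 to 23795125, minus strand) showed the largest log2 fold change in size among the 68 tested members. Its product is a large-subunit protein with no bacterial counterpart. The controls stood at 14.2, 16.2 and 16.4 CPM, and the siRNA_ANK libraries at 19.8, 22.3 and 20.007 CPM. The groups did not overlap, and the gene was 1.33-fold higher (log2 fold change 0.41 ± 0.10, adjusted p = 0.00404). Mrpl44 (ENSRNOG00000015231, chromosome 9, 81106655 to 81112812, plus strand), whose product is related to the double-strand RNA nuclease RNase III, was at 13.9, 15.2 and 15.6 CPM against 16.1, 18.9 and 20.007 CPM. The lowest siRNA_ANK library lay just above the highest control, and the log2 fold change was 0.30 ± 0.11 (adjusted p = 0.0346). Mrpl36 (ENSRNOG00000023407, chromosome 1, 29965317 to 29968807, minus strand) encodes a very small protein with a bacterial counterpart. Its values of 14.7, 13.6 and 13.1 CPM rose to 17.7, 16.2 and 15.8 CPM, a log2 fold change of 0.26 ± 0.10 with an adjusted p of 0.0487, close to the threshold.

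Mrpl27 (ENSRNOG00000003724, chromosome 10, 79595479 to 79601239, plus strand) was the only large-subunit gene called lower. It is the counterpart of bacterial L27, which reaches towards the site of peptide bond formation. The 3 controls held 24.5, 23.8 and 23.0 CPM and the siRNA_ANK libraries 19.0, 16.1 and 20.8 CPM. The groups were apart, with a log2 fold change of -0.35 ± 0.10 and an adjusted p of 0.0111. From start to end, introns included, this row spans 5761 bases that lie inside the span of Lrrc59 on the same strand. Its gene length in the files is 734 bases, and how many of these are shared was not computed. Lrrc59, whose product is anchored in the endoplasmic reticulum membrane, fell from 605 ± 14.5 to 330 ± 55.6 CPM, by 0.87 on the log2 scale (adjusted p = 9.92e-05). Reads of any counted bases shared with Lrrc59 could be credited to either row or left uncounted, and the part of Lrrc59 in the value of Mrpl27 was not tested.

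**Figure D2:**
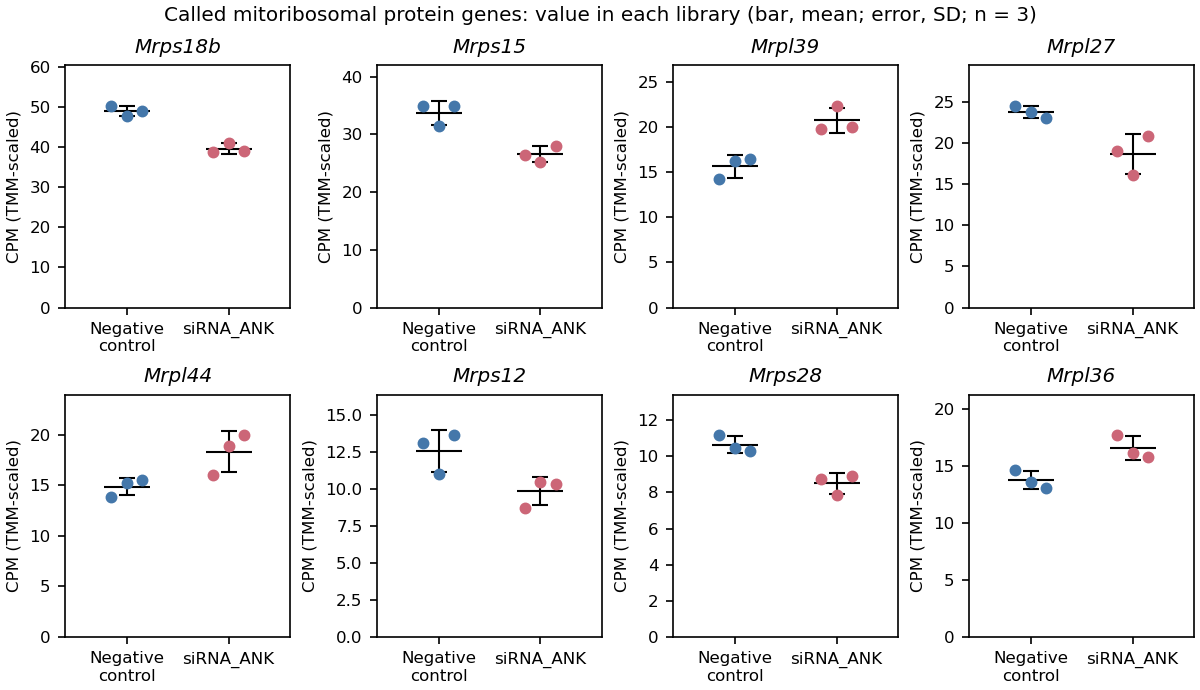
CPM of the 8 called mitoribosomal protein genes in each library, with a bar for the mean and error bars for the SD of 3 libraries, on axes that start at 0. The groups do not overlap in any of the 8 panels, and the closest approaches are in Mrps12 and Mrpl44.

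The 8 calls differed in how far they held across 18 other ways of running the test. Mrps18b, Mrps15 and Mrpl39 were called in 17 of the 18, Mrpl27 in 16 and Mrps12 in 13. Mrpl44 was called in 9, Mrps28 in 8 and Mrpl36 in 4. With each library left out in turn, Mrpl27 lost its call only without siRNA_ANK 2, and Mrps12 lost it without Negative_control 1, Negative_control 3 or siRNA_ANK 1. Mrpl44 kept its call only without siRNA_ANK 1, and Mrps28 and Mrpl36 kept theirs only without siRNA_ANK 3. DESeq2 called 4 members (Mrpl27, Mrpl39, Mrps15 and Mrps18b), beside 35.5% of all genes tested. A test against a change of more than 1.2-fold called none of the 68 members and 19.0% of all genes tested. At an unadjusted p under 0.05 the test against no change had 10 members, as given above.

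Promoters of genes for mitochondrial proteins often carry short elements bound by NRF1, by ETS-family factors such as GABP and by YY1. RefSeq promoter sequences of 300 bases around the annotated start (assembly GRCr8, another build than that of the files) were found for 51 of the 68 tested members. Those of the best-supported calls are shown here to set the lowered Mrps18b and Mrps15 beside the raised Mrpl39. Each is written 5′ to 3′ in the direction of the gene, and capitals mark the cores searched on both strands: CGCANGCG for NRF1, CCGGAAG for ETS factors and ATGGCGGC for YY1.
Mrps18b, chr20:2842756-2843055, plus strand: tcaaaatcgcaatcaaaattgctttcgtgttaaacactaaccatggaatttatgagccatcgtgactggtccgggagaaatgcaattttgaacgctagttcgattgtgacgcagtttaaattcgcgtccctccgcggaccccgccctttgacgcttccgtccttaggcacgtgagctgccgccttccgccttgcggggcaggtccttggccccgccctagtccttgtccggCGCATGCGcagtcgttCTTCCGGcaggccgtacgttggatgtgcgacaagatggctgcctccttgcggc
Mrps15, chr5:143605891-143606190, plus strand: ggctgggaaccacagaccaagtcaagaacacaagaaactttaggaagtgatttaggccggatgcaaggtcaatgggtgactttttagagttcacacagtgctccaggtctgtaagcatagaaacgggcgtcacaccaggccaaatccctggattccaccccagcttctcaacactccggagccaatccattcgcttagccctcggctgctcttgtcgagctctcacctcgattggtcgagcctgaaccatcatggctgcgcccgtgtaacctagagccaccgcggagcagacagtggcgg
Mrpl39, chr11:37281495-37281794, minus strand: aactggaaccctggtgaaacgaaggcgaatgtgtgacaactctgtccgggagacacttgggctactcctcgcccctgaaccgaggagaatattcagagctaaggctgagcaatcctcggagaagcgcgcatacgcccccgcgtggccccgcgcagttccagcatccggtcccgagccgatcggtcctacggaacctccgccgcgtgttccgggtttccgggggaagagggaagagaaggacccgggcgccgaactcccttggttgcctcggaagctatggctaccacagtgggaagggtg
The Mrps18b sequence held an NRF1 core and, on the other strand, an ETS core close to it. Neither of the other sequences held any of the cores in this window.

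Over the 51 promoters, 14 (27.5%) held the NRF1 core, 17 (33.3%) the ETS core and 11 (21.6%) the YY1 core. Among 8388 promoters of tested protein-coding genes the shares were 18.2%, 19.0% and 6.39%, and over all 33469 promoters in the RefSeq set 7.60%, 8.75% and 2.53%. At least one of these cores was present in 62.7% of the member promoters and in 36.8% of those of tested protein-coding genes. The CCAAT box was in 47.1% against 38.1%, the E-box CACGTG in 11.8% against 9.94% and the cAMP response element TGACGTCA in 1.96% against 3.25%. The median GC content of the member promoters was 56.0%, beside 61.7%. A core was present in 2 of 3 matched members called higher, in 2 of 3 called lower and in 28 of 45 not called. The YY1 core begins with ATG, and in all 11 members that held it, it lay in the gene's direction near the end of the window. Whether it was the start of translation there was not tested. All these matches to cores describe letters and say nothing about binding in these cells.

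Nrf1 itself, the gene of the transcription factor named above, fell. The controls stood at 34.1, 37.9 and 35.4 CPM and the siRNA_ANK libraries at 26.6, 27.0 and 27.0 CPM, a log2 difference of -0.41 ± 0.07 (adjusted p = 0.000485). The groups were well apart. The median of the 68 mitoribosomal protein genes was -0.02, and whether the level of Nrf1 bears on these genes was not tested. Gabpa, which encodes the DNA-binding part of GABP, was at -0.10 (adjusted p = 0.295). Of 14 tested regulators of mitochondrial DNA expression and mitochondrial biogenesis, 2 were higher and 3 lower (35.7% called, beside 40.1% of all genes), with a median of -0.09. Ssbp1, which coats single-stranded mitochondrial DNA (0.47, adjusted p = 0.00450), and Tefm, an elongation factor of the mitochondrial RNA polymerase (0.46, adjusted p = 0.0113), were higher. Esrra, a nuclear receptor of mitochondrial biogenesis, was lower at 4.50 ± 0.448 against 6.63 ± 0.202 CPM (-0.56, adjusted p = 0.00991).

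Compared per length, the members spanned a wide range that was kept between the groups. Levels were divided by the gene length in the files and averaged over the 6 libraries. Mrpl17, whose bacterial counterpart lies near the exit of the peptide tunnel, was the most abundant at 108 CPM per kilobase (94.0 to 116 over libraries). Mrpl20 followed at 45.6, Mrpl54 at 37.1, Mrps18b at 36.0 and Mrps26 at 29.0 CPM per kilobase. Mrps26 did not stand apart from the next genes, Mrpl27 at 28.9 and Mrpl3 at 28.4. The lowest tested were Mrpl47 at 3.58, Mrpl57 at 3.996 and Mrpl30 at 4.22 CPM per kilobase. The median was 13.3 CPM per kilobase, and the level at the 90th percentile was 4.73 times that at the 10th. The file length of Mrpl47, 5137 bases, was the longest of the tested members, and a long annotated length lowers a level per kilobase. As a description across genes, the levels in the 2 groups had a Spearman correlation of 0.973.

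**Figure D3:**
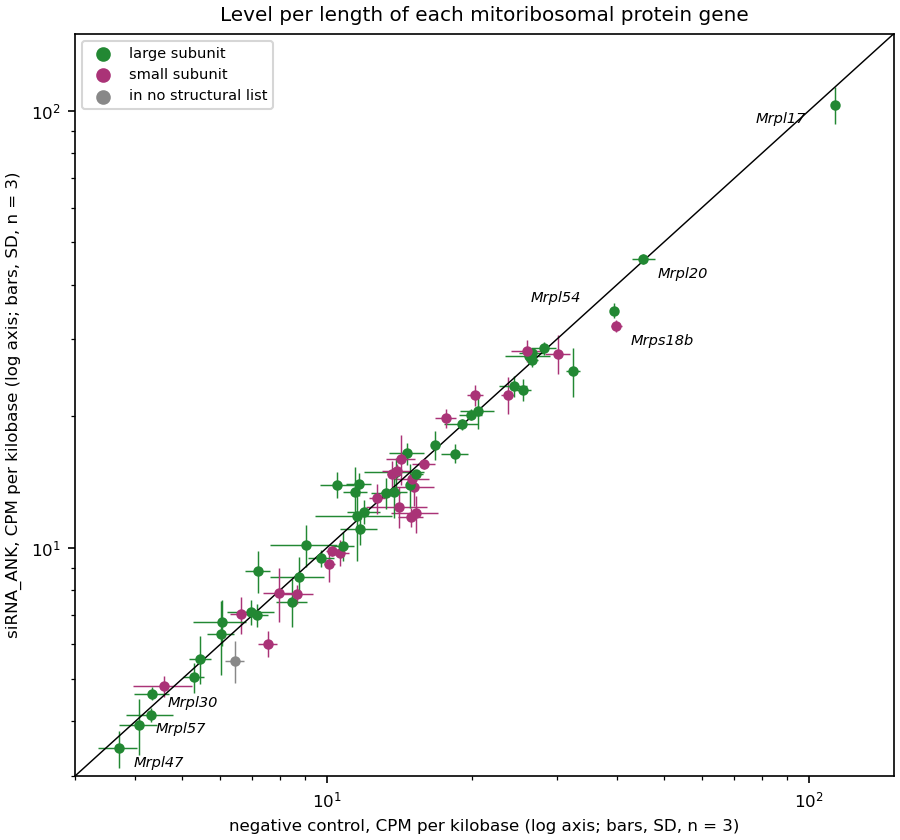
Level per length of each tested mitoribosomal protein gene in siRNA_ANK (vertical, CPM per kilobase, log axis) against negative control (horizontal, same unit, log axis), with bars for the SD of 3 libraries and a line of equal level. The points follow the line from Mrpl47 at 3.58 to Mrpl17 at 108 CPM per kilobase (means of 6 libraries), and Mrps18b lies below it.

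The most abundant members that were not called were Mrpl17, Mrpl37, Mrps2 and Mrpl3. For Mrpl17, the controls stood at 133, 129 and 129 CPM and the siRNA_ANK libraries at 117, 108 and 131 CPM, a log2 difference of -0.14 ± 0.07 (adjusted p = 0.123). Its siRNA_ANK library 3 was in the control range while the other two lay below it. Mrpl37 was at 61.8 ± 2.17 and 55.6 ± 3.21 CPM, without overlap (-0.15, adjusted p = 0.0771). Mrps2 was at 46.7 ± 1.75 and 51.3 ± 2.80 CPM (0.14, adjusted p = 0.126), and Mrpl3, a protein of the large-subunit core, at 47.7 ± 2.89 and 48.4 ± 1.59 CPM (0.02, adjusted p = 0.856). Besides Mrpl37, 3 members had groups that did not overlap and were not called, namely Mrpl38 and Mrpl54 on the lower side and Mrps33 on the higher side.

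Some members have roles apart from the ribosome or names that mislead. Mrps30 encodes a large-subunit protein in spite of its symbol and was at 40.2 ± 2.39 and 42.1 ± 0.808 CPM (log2 fold change 0.07, adjusted p = 0.473). Mrpl58, which also rescues stalled ribosomes as a peptidyl-tRNA hydrolase, was at 13.7 ± 0.949 and 13.8 ± 1.10 CPM (0.01, adjusted p = 0.968). Mrps36, whose product is a subunit of the 2-oxoglutarate dehydrogenase complex, was at 10.6 ± 0.479 and 9.09 ± 1.01 CPM (-0.23 ± 0.12, adjusted p = 0.160). None of these passed the test.

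The 2 untested rows were Mrps17 and a second Mrpl42 row. Mrps17 (ENSRNOG00000000926, chromosome 12, 26948730 to 26951737, minus strand) had 14, 8 and 10 reads in the controls and 1, 3 and 5 in siRNA_ANK. Without the filter on low counts its log2 fold change was -1.73 with an adjusted p of 0.0372. Its whole span, introns included, overlaps ENSRNOG00000066020 on the same strand. The files also describe that row as protein S17, and it had 14 reads in the controls and 13 in siRNA_ANK. Reads of any shared counted bases could be credited to either row or left uncounted, so the value of either row is uncertain. The Mrpl42 row on chromosome 13 had 1 read in all, and the tested row on chromosome 7 was at 8.24 ± 1.04 and 9.24 ± 1.10 CPM (0.16, adjusted p = 0.398).

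Members often lie head to head with a neighbour, so that both genes start from a shared stretch of DNA. A neighbour on the other strand with its 5′ end within 500 bases (a distance chosen after seeing the data) was found for 22 of the 68 members (32.4%) and for 1254 of 12038 tested protein-coding genes (10.4%). Of the 22 neighbours, 4 were higher and 2 were lower, where 19.9% of all genes tested were called higher and 20.2% lower. The median log2 fold change of the neighbours was -0.003. The called Mrps18b starts 419 bases from Ppp1r10, which encodes a regulatory subunit of protein phosphatase 1. Ppp1r10 went the other way, from 44.6 ± 1.79 to 68.2 ± 6.30 CPM, which is 0.61 ± 0.08 on the log2 scale (adjusted p = 1.68e-05). For Mrpl41 and Mrpl35, at 0.03 each, the neighbours Pnpla7 (-0.44, adjusted p = 0.00945) and Immt (-0.28, adjusted p = 0.00170) were lower. Immt organises the cristae of the inner mitochondrial membrane. For Mrps27 (-0.14), Mrps14 (-0.15) and Mrpl2 (0.16), none of them called, the neighbours Ptcd2 (0.54, adjusted p = 0.0118), Tnn (0.61, adjusted p = 0.0253) and Klc4 (0.30, adjusted p = 0.0200) were higher. Among the neighbours that were not called were Twnk, the helicase of mitochondrial DNA, beside Mrpl43 and Fau, which encodes a fusion of a ubiquitin-like protein with cytosolic S30, beside Mrpl49.

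**Figure D4:**
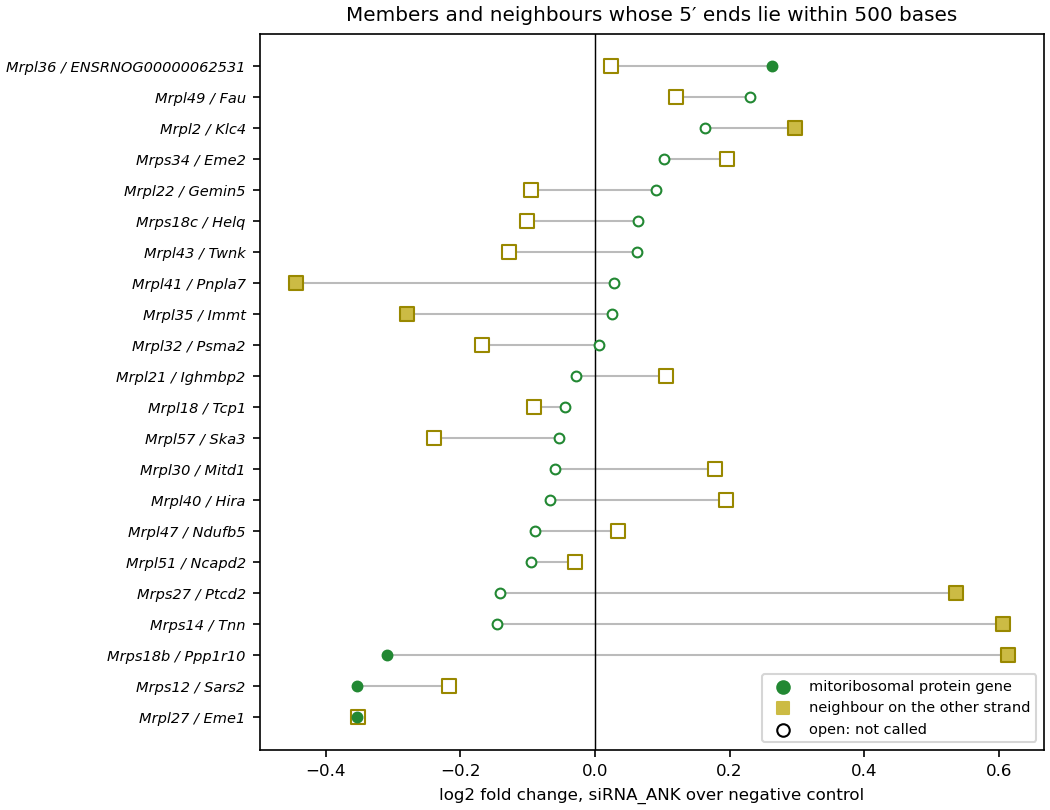
Log2 fold change of 22 mitoribosomal protein genes (circles) and of the neighbour whose 5′ end lies within 500 bases on the other strand (squares), filled where called. The 6 called neighbours stand beside members that were not called, except Ppp1r10 at 0.61 beside Mrps18b at -0.31.

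Counts of overlapping genes need the strand of the reads, which is not given in the sources used here. Taken from start to end of each row, introns included, 27 of the 70 rows overlap another row. There were 11 pairs with overlapping 5′ ends, 12 others on opposite strands and 5 on the same strand. The gene lengths in the files are shorter than such spans, and the overlap of counted bases was not computed. The spans of Mrpl46 and Mrps11 overlap each other over 9028 bases, and the genes were at -0.10 and -0.13. Their RefSeq promoter windows (GRCr8) cover chr1:142116981-142117280 and chr1:142117014-142117313 on opposite strands. By those starts the genes lie head to head, though by the starts in the files they were not among the neighbours above. Among the promoters searched, these windows hold much the same bases. Mrpl49 (0.23, adjusted p = 0.107), with a gene length of 1476 bases, overlaps Syvn1 over 6534 bases of span. Syvn1 was lower at 126 ± 20.3 against 195 ± 8.39 CPM. Mrps18a overlaps Rsph9 (-1.83, adjusted p = 0.00216), Mrps7 overlaps Gga3 (-0.43, adjusted p = 0.000407) and Mrpl47 overlaps Actl6a (-0.48, adjusted p = 0.00254). Their values are uncertain to the extent that reads were shared or left uncounted, which was not tested.

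Some mitoribosomal proteins do not follow the symbol rule. By their descriptions in the files 8 further tested rows were found, a list made after seeing the data. Of the 8, 1 was called (12.5%, beside 40.1% of all genes tested). ENSRNOG00000059381, described as protein S6, was higher at 7.82 ± 0.928 against 4.95 ± 0.602 CPM (log2 fold change 0.66 ± 0.16, adjusted p = 0.00420). The other rows ranged from -0.21 to 0.10. Of 5 mitoribosomal proteins with other kinds of symbol, 2 were higher and 1 lower (60.0% called, beside 40.1% of all genes tested, median -0.05). Dap3, a GTP-binding small-subunit protein, rose from 35.2, 36.0 and 36.2 CPM to 42.9, 47.0 and 48.5 CPM, with no overlap (0.36, adjusted p = 0.000925). Ptcd3, an RNA-binding small-subunit protein, was higher at 36.9 ± 3.31 against 30.8 ± 1.91 CPM (0.26, adjusted p = 0.0222). Aurkaip1, also of the small subunit, was lower at 141.7 ± 8.79 against 170.5 ± 3.28 CPM (-0.27, adjusted p = 0.00207). The small subunit thus had called genes in both directions once these were counted.

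Other steps of mitochondrial protein synthesis were covered by the lists that follow, whose shares called stand beside 40.1% of all genes. Of 28 tested assembly and RNA modification factors, 1 was higher and 3 lower (14.3% called), with a median of 0.12. Fastkd2, an RNA-binding protein needed for the large-subunit RNA, was lower at 12.3 ± 1.49 against 17.2 ± 0.604 CPM (log2 fold change -0.48, adjusted p = 0.00252). Mpv17l2 (-0.25, adjusted p = 0.0275) and Nme6 (-0.34, adjusted p = 0.0351) were lower, and the GTPase Noa1 (0.29, adjusted p = 0.0485) was higher. Of 17 translation factors and mRNA-handling proteins, 2 were called, both higher (11.8%, median 0.05). These were Gfm2, which splits the ribosome after translation (0.30, adjusted p = 0.00982), and Oxa1l, which inserts new chains into the inner membrane (0.16, adjusted p = 0.0496). Of 17 tRNA synthetases and tRNA amidation proteins, 6 were higher and 1 lower (41.2% called, median 0.14). Fars2, for phenylalanine, was lower at 23.4 ± 4.85 against 37.3 ± 2.57 CPM (-0.67, adjusted p = 0.00103), and Lars2 (0.37, adjusted p = 0.0172), Cars2 (0.38, adjusted p = 0.0176) and Gatb (0.45, adjusted p = 0.0177) were higher. The 6 synthetase genes called higher became 0 without Negative_control 1, 1 without siRNA_ANK 1 and 3 without Negative_control 2, Negative_control 3 or siRNA_ANK 2.

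The mRNAs that the mitoribosome translates were counted in the same libraries. All 13 of these mitochondrially encoded genes had log2 fold changes above 0, and 5 were called higher (38.5%, beside 19.9% of all genes called higher; median 0.11). Mt-nd2 (0.18, adjusted p = 0.00982), Mt-atp6 (0.15, adjusted p = 0.0259), Mt-nd1 (0.15, adjusted p = 0.0283) and Mt-cyb (0.14, adjusted p = 0.0334) led them, each 1.10- to 1.13-fold higher. Without Negative_control 3 none was called, and without siRNA_ANK 1, siRNA_ANK 2 or Negative_control 1 at most 2 were. Before scaling between libraries, the 13 genes made up 3.16%, 3.07% and 3.04% of the reads in the controls. In siRNA_ANK they made up 3.12%, 3.18% and 3.21%, so the groups overlapped. The median standard error of the mitochondrially encoded genes was 0.051, beside 0.097 for the mitoribosomal proteins, so their share called is not directly comparable. Of 61 nuclear subunits of the respiratory chain and ATP synthase, 2 were higher and 6 lower (13.1% called, median -0.02). Uqcrfs1 of complex III was higher (0.18, adjusted p = 0.0202), whereas Cyc1 (-0.26, adjusted p = 0.00489), Uqcrq (-0.30, adjusted p = 0.00531) and Uqcrc1 (-0.22, adjusted p = 0.00755) of the same complex were lower. Of the nuclear subunits, 2 were lower without Negative_control 1 and 10 without siRNA_ANK 3, and 0 were higher without Negative_control 1 or Negative_control 3. The RNA components of the mitoribosome were not analysed here.

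For genes of import and folding, the median size of the log2 fold change without sign was 0.16 and 0.17, beside 0.09 for the mitoribosomal proteins. Other lists lay near the mitoribosomal value, with 0.097 for the nuclear respiratory subunits, 0.10 for cytosolic ribosomal proteins and 0.11 for mitochondrially encoded proteins and translation factors. Regulators of mitochondrial DNA expression and biogenesis were at 0.14, assembly factors at 0.20 and synthetases at 0.25. The difference between these lists was not tested. Of 20 import genes, 4 were called, all of them lower (20%, beside 20.2% of all genes called lower; median -0.12): Timm8b (-0.54, adjusted p = 0.00103), Timm17a (-0.31, adjusted p = 0.00625), Timm23 (-0.23, adjusted p = 0.0211) and Tomm40 (-0.20, adjusted p = 0.0245), all parts of the translocases of the outer and inner membranes. Of the import genes, 2 were lower without Negative_control 1, Negative_control 3 or siRNA_ANK 1, and 7 without siRNA_ANK 3. Of 14 chaperones and proteases, 2 were higher and 3 lower (35.7% called, median -0.06). Lonp1, the protease of the matrix, was lower at 248 ± 21.7 against 365 ± 10.03 CPM (-0.56, adjusted p = 9.47e-06). Hspa9, the matrix HSP70 (-0.35, adjusted p = 0.00130), and the inner-membrane protease Afg3l2 (-0.38, adjusted p = 0.000243), which matures a large-subunit protein, were lower too. Htra2, a protease between the membranes, was higher (0.54, adjusted p = 0.000216).

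The cytosolic ribosome offers the nearest comparison. Of 53 cytosolic ribosomal protein genes whose symbol stood on a single row, 16 were called, all of them higher (30.2%, beside 19.9% of all genes called higher; median 0.10). Rpl3 (0.28, adjusted p = 0.000366), Rpl7a (0.30, adjusted p = 0.000521), Rpl15 (0.27, adjusted p = 0.000860) and Rps19 (0.25, adjusted p = 0.00107) had the lowest adjusted p. Many of these genes have near-identical copies, so their counts are less certain. The number called higher fell to 8 without Negative_control 2 or siRNA_ANK 2 and to 9 without Negative_control 3 or siRNA_ANK 1. Before scaling between libraries, the 53 genes made up 2.51%, 2.40% and 2.42% of the reads in the controls. In siRNA_ANK they made up 2.49%, 2.52% and 2.66%, so the groups overlapped. The median standard error was 0.057 for the cytosolic list and 0.097 for the mitoribosomal proteins, and the median sizes without sign were 0.10 and 0.09. A smaller standard error lets smaller differences be called, so the shares called in these lists are not directly comparable. The difference between the cytosolic and the mitochondrial lists was not tested.

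**Figure D5:**
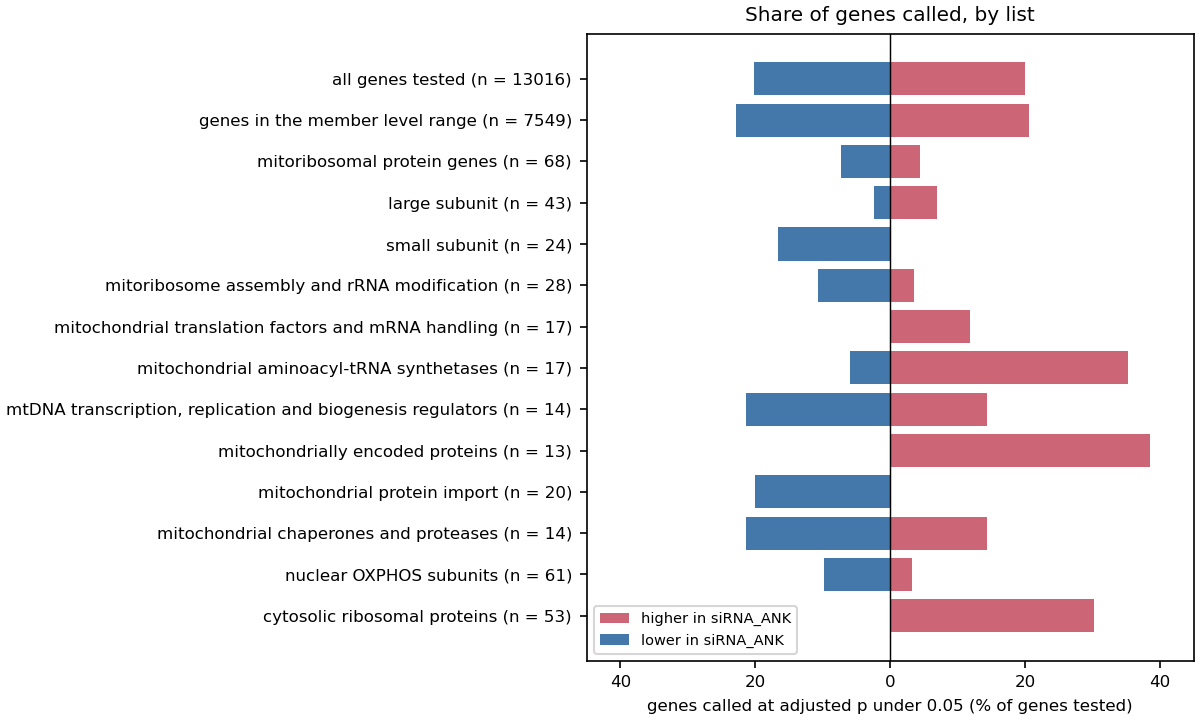
Share of tested genes called higher (right) and lower (left) in siRNA_ANK, in percent of the genes tested, for all genes, for the genes in the members' range of levels, for the mitoribosomal proteins and their subunits and for other gene lists, with the number tested in brackets. The mitoribosomal proteins (11.8%) have a shorter bar than all genes tested (40.1%). The lists differ in their standard errors, so not all bars are directly comparable.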

How the data were processed

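RNA of 6 libraries (3 per group) was sequenced. The submitters' processing notes name featureCounts 1.5.0-p3, DESeq2 and the build mRatBN7.2. The aligner and the strand setting were items not given in the sources used here. The authors deposited whole-number counts per gene with symbol, biotype, length and coordinates. Groups came from the labels. Genes passing edgeR's filter (minimum count 10, total 15) were scaled by TMM and tested over all 6 libraries with edgeR 4.0.16 (R 4.3.3; robust quasi-likelihood test, two-sided, Benjamini-Hochberg adjustment). CPM are TMM-scaled, errors of log2 fold changes are SE and intervals 95%. With 3 libraries against 3, a permutation test cannot go below p = 0.1, so none was used. Alternatives included DESeq2 1.42.0, limma 3.58.1, other scalings, filters, a replicate block, a length correction and left-out libraries. The fit was checked on simulated data in which few genes were changed, each by more than any called member. That check does not bear on calls of small changes or on data where many genes change.

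The members and gene lists were chosen with earlier results of these data known. Named genes were: called members with at least 2 CPM and no overlap of groups; the most and least abundant per kilobase; the most abundant not called; the Mrps18 paralogues, Mrps30, Mrps36 and Mrpl58; overlapping and untested members; and up to 4 called genes per other list by adjusted p. Neighbours, further members by description, intervals within 1.5-fold and the comparison by level were added after seeing the data. List symbols found on no row or on several rows were left out. Replicate libraries differed beyond sampling noise (chi-square per degree of freedom 2.83 to 12.3). The 385 rows without a symbol were kept under their identifiers.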

Additional observations from a re-analysis of the deposited data

How the results depend on the processing

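The members called here differed by at most 0.41 on the log2 scale. Mrps17, not tested there, was also called (lower) without the filter, without Negative_control 2, without siRNA_ANK 3 and without both. With DESeq2, 4 members (5.88%) were called, 1 higher and 3 lower, beside 35.5% of all genes tested. There, 1 was higher in the large subunit, 2 were lower in the small subunit and 0 nuclear respiratory subunits were higher. Without a filter beyond 1 count, 3 mitochondrially encoded proteins and 1 nuclear respiratory subunit were higher. With a correction for gene length, 7 members were called, beside 41.7% of all genes tested. There, 1 member was higher (1 in the large subunit, where 2 were lower) and 1 nuclear respiratory subunit was higher. The replicate numbers are shared by the groups. Correlations between libraries of the 2 groups were taken after each gene's mean within its group was subtracted from the log2 levels. Same-numbered libraries had r = -0.031, 0.084 and 0.049. Differently numbered ones ran from -0.10 to 0.059, so the numbers were not taken as pairs. With a replicate block, 6 members were called, 2 higher and 4 lower, beside 40% of all genes tested. With the replicate block and the length correction together, 9 members were called, beside 42.3% of all genes tested. There, 3 of the large subunit were lower, 1 nuclear respiratory subunit was higher and the synthetase median was 0.085. A test against a fold of 1.2 called 0 members, higher or lower, in either subunit, beside 19% of all genes tested. It called 0 of the cytosolic ribosomal, mitochondrially encoded, nuclear respiratory and synthetase genes, and 1 import gene (lower).

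Without Negative_control 2 and siRNA_ANK 3 together, 10 members (14.5%) were called, 8 of them lower, beside 46.2% of all genes tested. These 2 libraries were picked because they lay nearest to the other group in an earlier analysis of these data. Leaving out libraries picked in this way tends to widen the group differences, so the larger values are no separate evidence. The medians were -0.082 for the members, -0.051 for the large subunit (3 lower) and -0.14 for the small subunit. For proteins listed as specific to mitochondria they were -0.10 in the large and -0.14 in the small subunit. In this run, 4 nuclear respiratory subunits were higher and 11 lower, 9 import genes were lower and the synthetase median was 0.087. Some log2 fold changes near 0 changed sign: Mrpl3 (-0.011, and -0.0099 with the replicate block) and Mrpl58 (-0.0015, and -0.0017 with the replicate block) under the length correction, and Mrpl20 (-0.017), Mrpl30 (0.0038), Mrpl3 (-0.0072), Mrps18a (-0.25) and Mrpl58 (-0.11) without the 2 libraries. The cause of these changes was not tested.

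Leaving out each library in turn gave 4 to 13 members called (1 to 3 higher, 3 to 10 lower), beside 30.6% to 44.3% of all genes tested. The member median was -0.075 to -0.0043. In the large subunit 1 to 3 were higher, 0 to 3 lower and the median was -0.059 to 0.021. In the small subunit 2 to 7 were lower and the median was -0.10 to -0.043. By list, the medians were -0.025 to 0.021 and -0.092 to 0.036 in the large subunit, for proteins in the place of a bacterial one and for those specific to mitochondria, and -0.10 to -0.043 and -0.12 to -0.056 in the small subunit. Cytosolic ribosomal proteins had 8 to 13 higher (median 0.082 to 0.13), mitochondrially encoded proteins 0 to 4 (0.075 to 0.14), synthetases 0 to 4 (0.047 to 0.18) and nuclear respiratory subunits 0 to 3 higher and 2 to 10 lower (-0.061 to -0.0046). Import genes had 2 to 7 lower. Single genes ran from -0.13 to 0.063 for Mrpl57, -0.026 to 0.061 for Mrpl3, -0.12 to 0.19 for Mrps18a, -0.059 to 0.054 for Mrpl58, -0.025 to 0.053 for Mrpl20 and -0.040 to 0.15 for Mrps18c. Ankh was called each time, at -2.12 to -1.79. The other scalings (DESeq2 size factors, upper quartile, TMM without the 20 most abundant genes), limma-voom and a filter at 5 CPM gave 7 or 8 members called. The share called over all genes was 39.8% to 45.3% in these runs.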
